A study of Mus musculus with 20 samples.

Results

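The collagen gene family was taken as every row of the deposited table whose gene name has the form Col, a number, the letter a and a number. This gave 44 genes of 54532 rows, which were placed by textbook structure into 11 fibrillar, 6 basement membrane and 27 other collagen genes. The members are defined by name and not by any measured value. The study measured polyadenylated RNA of whole mouse liver in 4 groups of 5 libraries, crossing a knockout of STING (gene Tmem173) with bile duct ligation (BDL), the surgical closure of the duct that drains bile from the liver. BDL_KO and BDL_Wt are livers of STING knockout and wild-type mice 7 days after ligation, and Sham_KO and Sham_Wt are livers of the same genotypes after sham surgery. Strain, age, sex and the deleted part of Tmem173 are not given in the sources used here. The series' design text also names Abcb4-deficient mice, which were not analysed here. The labels do not say that each library came from a separate animal, so p-values measure the spread between libraries.

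Collagens are built from chains in which glycine occupies the first position of each repeating triplet, so that the chains of a molecule can wind around each other as a triple helix. Fibrillar collagens (types I, III and V in liver) assemble into the cross-banded fibrils of scar tissue, with type I as the main component and types III and V regulating fibril growth. Basement membrane collagen (type IV) forms sheets under epithelium and around vessels, and lies sparsely in the space between hepatocytes and sinusoids. The other collagens include the beaded filaments of type VI, the fibril-associated types XIV and XVI, the membrane-spanning type XIII, and the multiplexins XV and XVIII. Bile duct ligation is a standard model of cholestatic injury in which bile ducts proliferate and portal scar tissue forms, with hepatic stellate cells and portal fibroblasts as the known sources of fibrillar collagen.

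Stretches of coding sequence show what separates the classes, in genes that lead the results. Each line holds 24 codons (72 bases) of the GENCODE transcript on GRCm38, 5′ to 3′ on the coding strand, with the glycine codons (GGN) in capitals. The fibrillar stretches of Col1a1 and Col3a1 come from inside the longest unbroken Gly-X-Y run, and that of the type IV chain Col4a1 spans the end of such a run.
Col1a1 codons 468 to 491, chromosome 11, plus strand: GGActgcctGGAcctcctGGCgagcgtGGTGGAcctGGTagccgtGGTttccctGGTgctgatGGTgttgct
Col3a1 codons 464 to 487, chromosome 1, plus strand: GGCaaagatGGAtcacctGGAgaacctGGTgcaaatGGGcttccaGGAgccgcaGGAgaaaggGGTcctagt
Col4a1 codons 1338 to 1361, chromosome 8, minus strand: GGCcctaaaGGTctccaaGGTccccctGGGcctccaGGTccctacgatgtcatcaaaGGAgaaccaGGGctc
In Col1a1 and Col3a1 the capitals return at each triplet, whereas in Col4a1 the rhythm breaks. Over the 11 fibrillar genes the longest unbroken run had a median of 338 triplets and a range of 216 to 344, the shortest being Col24a1 with 216 and Col27a1 with 217. Over the 6 type IV genes the median was 43.5 triplets (39 to 66), and over the 27 other genes 45 triplets (23 to 113). Runs of at least 5 triplets numbered 2 to 3 in fibrillar genes, 22 to 27 in type IV genes and 2 to 21 in the others.

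The deposited values are fragments per kilobase of exon, scaled between libraries (FPKM), which correct for gene length, so that levels can be set side by side between genes. Depth worked back from the smallest steps of the values was 14.94 to 20.9 M fragments a library, or 86.9% to 134% of the library size that the values imply, so the deposited scale is not that of total fragments. Tmem173 itself averaged 1.42 ± 0.762 FPKM in ligated KO livers and 3.64 ± 0.861 FPKM in ligated Wt livers (SD, n = 5 each), and the 2 groups did not overlap (log2 difference -1.17, exact permutation p = 0.00794, two-sided, the smallest that 5 against 5 allows). In sham livers it averaged 0.743 ± 0.189 FPKM in KO and 1.71 ± 0.544 FPKM in Wt (log2 difference -0.80, exact permutation p = 0.0159, n = 5 each). Of the 5 ligated KO libraries, BDL_KO_2359 and BDL_KO_2248 stood apart from the other 3 on the second principal component of all genes, at -31.7 and -67.6. Their summed cholangiocyte markers were 88.6 and 68.7 FPKM, against 339 to 568 FPKM in the other 3, and their summed stellate cell markers 7.77 and 5.36 FPKM against 25.4 to 28.2 FPKM. Results for ligated KO livers are therefore given with and without these libraries. A further split is by sex-linked transcripts: 10 libraries carried Y-linked transcripts and 10 carried Xist, with 2, 3, 3 and 2 Y-linked libraries in BDL_KO, BDL_Wt, Sham_KO and Sham_Wt. In the values that follow, ligated KO libraries are in the order BDL_KO_2359, BDL_KO_2365, BDL_KO_2248, BDL_KO_2370 and BDL_KO_2371, ligated Wt libraries in the order BDL_Wt_2233, BDL_Wt_2235, BDL_Wt_2236, BDL_Wt_2237 and BDL_Wt_2240, and sham libraries in the order of their numbers.

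Of the 44 genes, 18 reached 0.5 FPKM in at least 5 of the 20 libraries and could be tested, and 26 fell short of this limit and are called too low to measure here. The limit is one of FPKM and not of fragments. Short of it, Col20a1 had 18 to 65 fragments a library and Col12a1 13 to 103. The measured genes were 7 of 11 fibrillar (Col1a1, Col1a2, Col3a1, Col5a1, Col5a2, Col5a3 and Col27a1), 3 of 6 basement membrane (Col4a1, Col4a2 and Col4a5) and 8 of 27 other collagens (Col6a1, Col6a2, Col6a3, Col13a1, Col14a1, Col15a1, Col16a1 and Col18a1). Every measured gene had at least 16 fragments in each library. Just inside the limit were Col16a1, at a mean of 0.715 FPKM and above the limit in 14 libraries, and Col5a2, above it in 11 libraries. Col5a2 reached it in 5 ligated KO, 5 ligated Wt, 1 sham KO and 0 sham Wt libraries. Col4a5 reached it in 5, 5, 2 and 2 libraries in the same order. Both thus passed the filter only through ligated libraries, which favours a rise after ligation among the genes tested. Just outside were Col20a1, which reached the limit in 2 libraries with a maximum of 0.803 FPKM, and Col4a3, which reached it in 1 library with a maximum of 0.533 FPKM. Levels of collagens known from cartilage differed widely. Col2a1, the main chain of cartilage fibrils, had at most 1 fragment in any library, Col9a1 at most 1, Col10a1, of growth plate cartilage, at most 3, Col9a3 up to 21 and Col11a2 up to 46, and Col27a1 was measured. Col17a1, of the skin's anchoring complex, had at most 5 fragments. Col19a1 and Col26a1 are listed at 0 in all 20 libraries. With the limit lowered to 0.1 FPKM, Col12a1, a fibril-associated collagen, was higher in ligated than in sham Wt livers by 0.77 ± 0.23 on the log2 scale (limma adjusted p = 0.015), and Col8a1, of short-chain networks, by 0.84 ± 0.29 (adjusted p = 0.0346). At that limit 15.6% of 18814 genes were called higher. In KO livers the differences were 0.09 ± 0.23 for Col12a1 (adjusted p = 0.823) and 0.69 ± 0.29 for Col8a1 (adjusted p = 0.102).

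One gene dominated the family's RNA. Col18a1 measured 216, 132, 237, 168 and 112 FPKM in ligated KO livers, against 136, 156, 117, 183 and 119 FPKM in ligated Wt livers. For Col18a1, sham KO livers gave 170.3, 168, 128, 138 and 147 FPKM and sham Wt livers 164, 169, 156, 175 and 149 FPKM. Col18a1, which encodes the multiplexin that carries endostatin at its end, is strongly transcribed by hepatocytes. The groups overlapped throughout, and the log2 difference was 0.16 ± 0.18 in ligated over sham KO livers (limma adjusted p = 0.556) and -0.21 ± 0.18 in ligated over sham Wt livers (adjusted p = 0.384). The whole tissue was measured, so fewer or more cells of a type and less or more RNA per cell cannot be told apart. The Col18a1 share of the summed collagen FPKM was 51.2% to 89.7% in ligated KO livers and 52.2% to 68.3% in ligated Wt livers, against 74.5% to 81.8% in sham KO livers and 77.9% to 84.5% in sham Wt livers. The 2 highest shares among ligated livers belonged to BDL_KO_2359 and BDL_KO_2248, which also had the highest Col18a1 FPKM of all 20 libraries. In fragments the highest was BDL_Wt_2237, with 23659 against 22760 in BDL_KO_2359 and 22636 in BDL_KO_2248. Without Col18a1 the family summed to 27.1 to 155 FPKM in ligated KO livers and 72.4 to 111 FPKM in ligated Wt livers. In sham livers the same sum was 38.0 to 43.7 FPKM in KO and 28.6 to 46.6 FPKM in Wt. By class, fibrillar genes summed to 48.8 ± 33.9 FPKM in ligated KO livers, 51.4 ± 11.0 FPKM in ligated Wt livers, 17.0 ± 2.68 FPKM in sham KO livers and 16.9 ± 6.96 FPKM in sham Wt livers (SD, n = 5 each). The 6 basement membrane genes summed to 22.1 ± 12.4 FPKM in ligated KO livers, 28.4 ± 4.26 FPKM in ligated Wt livers, 8.77 ± 0.668 FPKM in sham KO livers and 7.76 ± 1.02 FPKM in sham Wt livers.

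**Figure D1:**
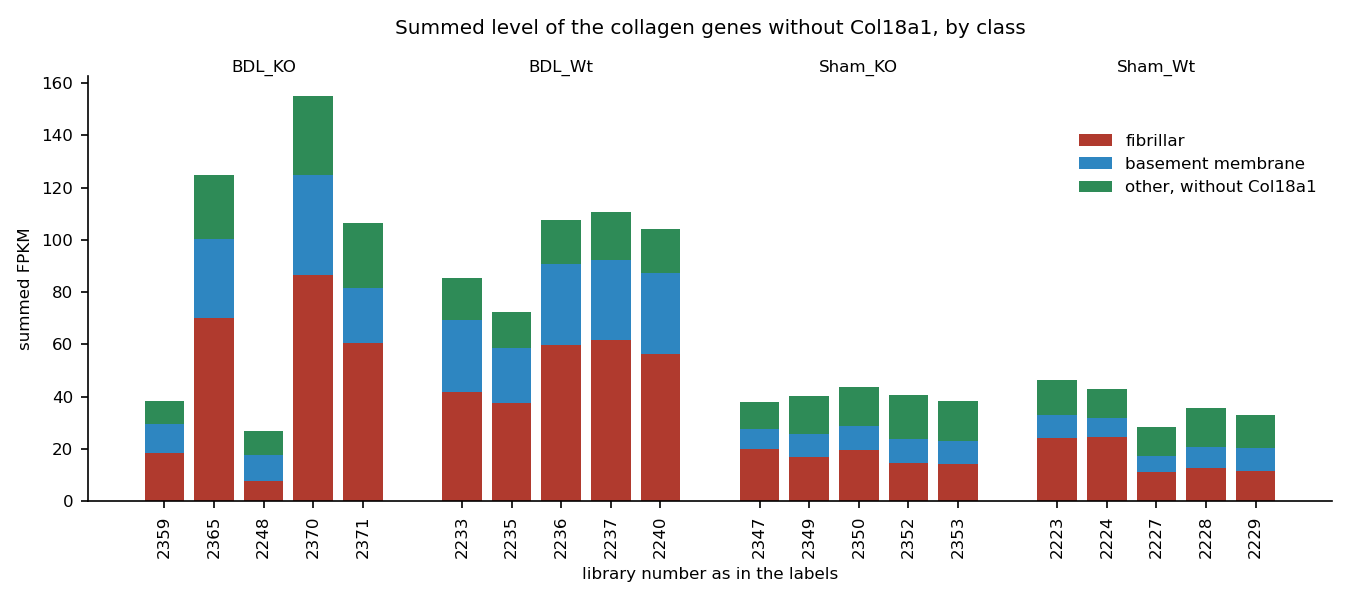
Summed FPKM of the collagen genes without Col18a1 in each of the 20 libraries, 1 stacked bar a library, split into fibrillar, basement membrane and other collagens, with the groups in the order BDL_KO, BDL_Wt, Sham_KO and Sham_Wt. The bars of BDL_KO_2359 and BDL_KO_2248 are as low as those of sham livers, and the other 8 ligated libraries stand above all sham libraries.

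Genes of all 3 classes were higher after ligation in both genotypes. Col5a2 and Col4a5, called higher in both, passed the filter only through ligated libraries. In KO livers 10 of the 18 measured genes passed the test, 9 higher and 1 lower, where 25.1% of all 14059 genes tested were called, 12.3% higher and 12.9% lower. In Wt livers 12 of 18 passed, 11 higher and 1 lower, where 35.6% of all genes were called, 18.1% higher and 17.5% lower. The balance of all genes depended on the scaling between libraries. On TPM, 15.2% were called higher and 4.83% lower in KO livers and 32.1% higher and 7.06% lower in Wt livers, and with total fragments 10.9% higher and 8.04% lower in KO and 24.2% higher and 9.9% lower in Wt livers. The median over all genes shifted by 0.16 in KO and 0.29 in Wt livers on TPM, and by 0.05 in KO and 0.16 in Wt livers with total fragments. The collagen genes called higher then numbered 9 in KO and 11 in Wt livers on TPM, and 8 in KO and 11 in Wt livers with total fragments. The test was limma on log2(FPKM + 0.5) with Benjamini-Hochberg adjustment over all genes, and a fold change on this scale understates that of low genes. In KO livers the calls were 3 higher and 1 lower of 7 fibrillar genes, 3 higher of 3 basement membrane genes and 3 higher of 8 others. In Wt livers they were 4 higher and 1 lower of 7 fibrillar, 3 higher of 3 basement membrane and 4 higher of 8 other genes. Median log2 differences in KO livers were 1.52 for fibrillar, 0.94 for basement membrane and 0.45 for other genes, and in Wt livers 1.55, 1.26 and 0.26, beside medians over all genes of -0.013 in KO and -0.02 in Wt livers. In KO livers 3 of 18 genes had every ligated library above every sham library, where 5.85% of all genes did, and 1 of 18 had every ligated library below, where 5.72% did. The 3 above were Col6a1, Col5a2 and Col4a5. In Wt livers every ligated library was above every sham library for 12 of 18 genes, where 16.6% of all genes did so, and below for 0 of 18, where 15.1% did. Col5a2 and Col4a5 are in both counts, and their passing only through ligated libraries favours such a separation. The KO count rests largely on these genes, so it is a description.

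**Figure D2:**
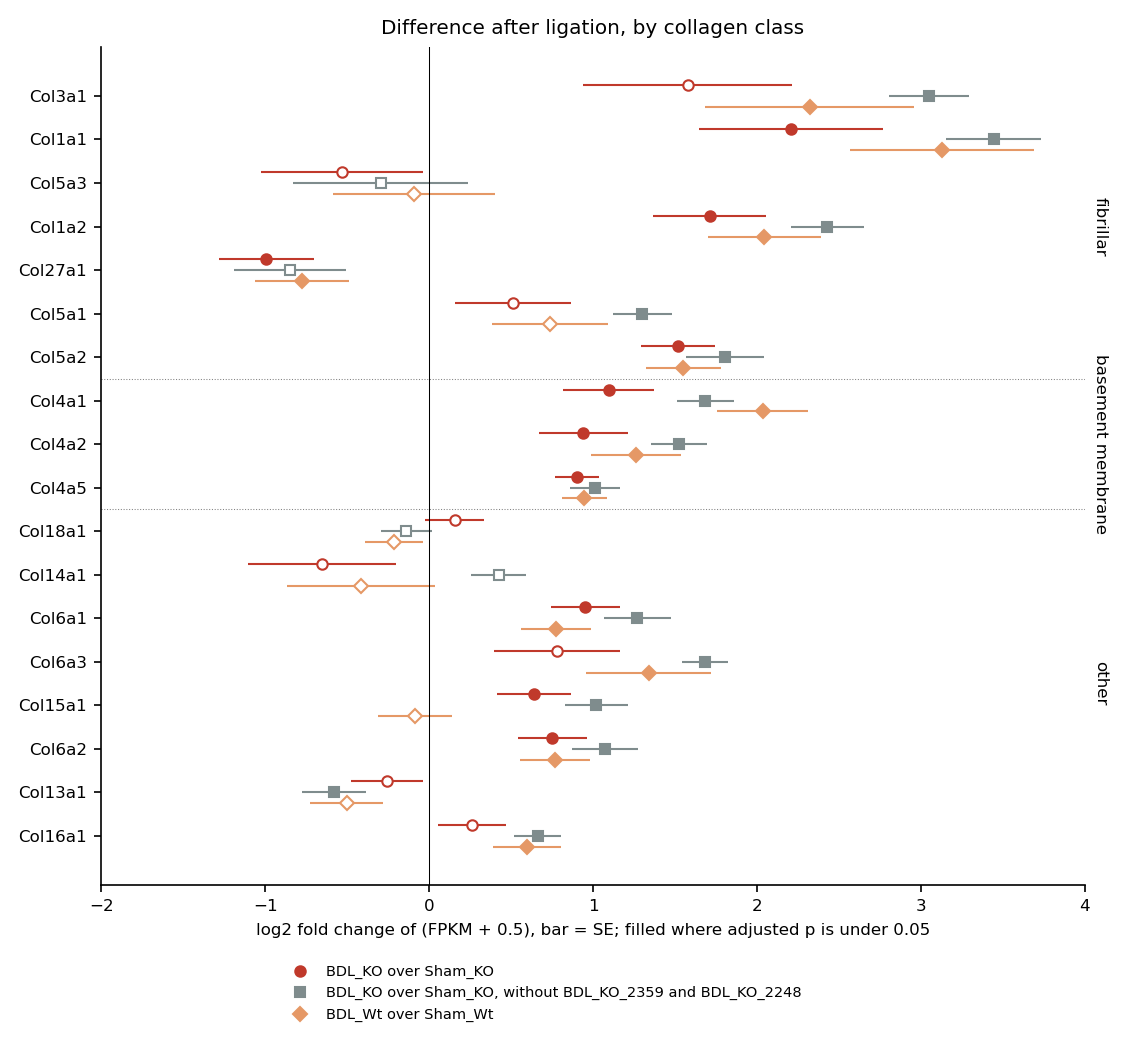
Log2 differences (points) with their standard errors (bars) of the 18 measured collagen genes on the log2(FPKM + 0.5) scale, by class, for ligated over sham KO livers with all 5 ligated libraries, the same without BDL_KO_2359 and BDL_KO_2248, and ligated over sham Wt livers, filled where the adjusted p was under 0.05. Col1a1 shows a difference of 2.21 in KO and 3.13 in Wt livers, and Col27a1 lies below 0 in both.

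Type I collagen is the bulk of scar fibrils, and Col1a1 had the largest log2 difference of the 18 genes in both genotypes. Col1a1 measured 3.18, 17.5, 1.05, 28.1 and 15.8 FPKM in ligated KO livers, against 10.0, 10.4, 16.5, 24.2 and 14.0 FPKM in ligated Wt livers. For Col1a1, sham KO livers gave 0.746, 0.953, 1.62, 1.63 and 2.28 FPKM and sham Wt livers 1.80, 0.989, 0.935, 1.20 and 1.12 FPKM. Every ligated Wt library lay above every sham Wt library. Among ligated KO livers BDL_KO_2248 lay inside the sham KO range and BDL_KO_2359 was the next lowest, with the other 3 far above. On the log2 scale Col1a1 rose by 2.21 ± 0.56 in KO livers (± SE, limma adjusted p = 0.00805) and by 3.13 ± 0.56 in Wt livers (adjusted p = 0.000299). Fitting only the compared groups, whose spread then comes from these libraries alone, ended the KO calls of Col1a1 (adjusted p = 0.0657), Col4a1 (adjusted p = 0.0633), Col4a2 (adjusted p = 0.0886), Col6a2 (adjusted p = 0.0621) and Col15a1 (adjusted p = 0.117). That fit called 12% of all genes in KO livers, against 25.1% in the main fit. Without the 2 libraries that stood apart Col1a1 rose by 3.45 ± 0.29 in KO livers. Col1a2 measured 3.03, 8.73, 1.91, 12.0 and 8.51 FPKM in ligated KO livers, against 5.13, 4.89, 7.76, 10.9 and 6.82 FPKM in ligated Wt livers. For Col1a2, sham KO livers gave 0.852, 1.33, 1.23, 1.66 and 2.07 FPKM and sham Wt livers 1.48, 1.03, 1.20, 1.41 and 1.29 FPKM. Col1a2, the partner chain of type I, showed the same order, with BDL_KO_2248 inside the sham KO range and BDL_KO_2359 above it. It rose by 1.71 ± 0.35 in KO livers (adjusted p = 0.00163) and by 2.04 ± 0.35 in Wt livers (adjusted p = 0.000168), and by 2.43 ± 0.22 in KO livers without those 2 libraries. Since they were the lowest ligated KO libraries for Col1a1 and Col1a2, the values without them are a description.

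**Figure D3:**
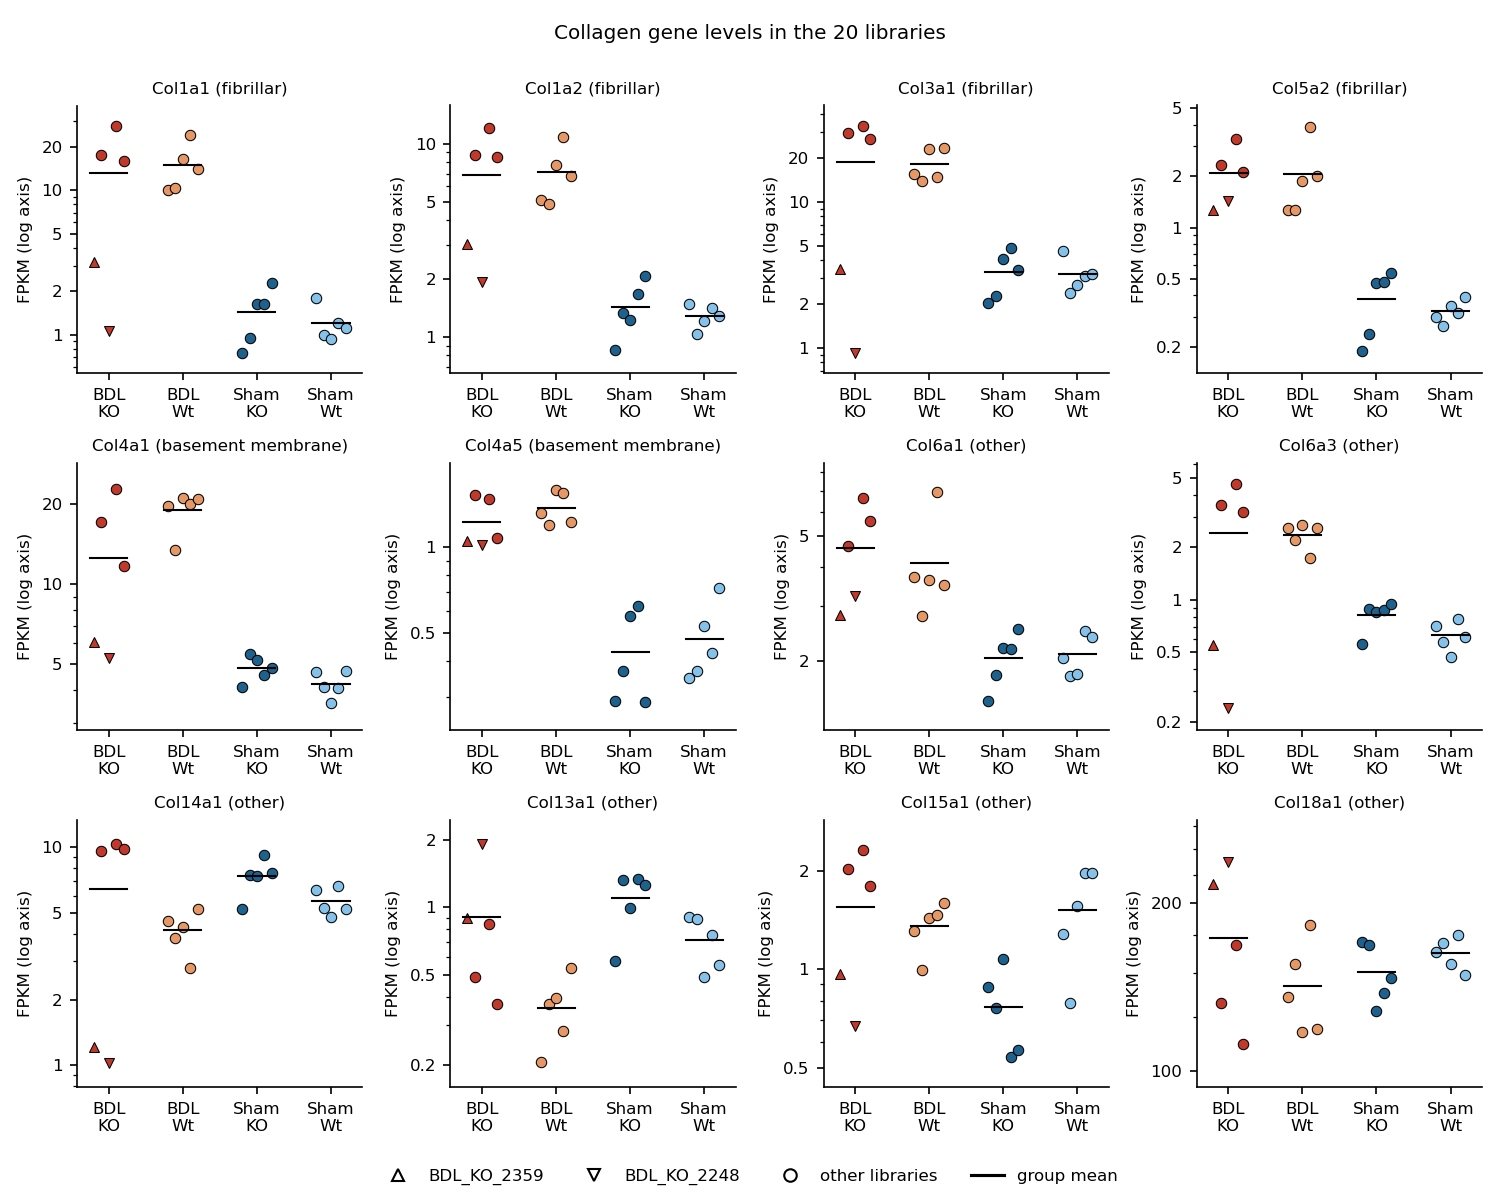
FPKM (log axis) of 12 measured collagen genes, 1 point a library, for BDL_KO, BDL_Wt, Sham_KO and Sham_Wt from left to right, with horizontal lines at the group means and triangles for BDL_KO_2359 and BDL_KO_2248. In Col1a1 and Col3a1 the ligated KO points split into 3 high and 2 low libraries, whereas Col18a1 overlaps in all groups.

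Type III, which forms fibrils together with type I, ranged over more than an order of magnitude among ligated KO livers. Col3a1 measured 3.49, 29.6, 0.928, 33.3 and 27.0 FPKM in ligated KO livers, against 15.6, 13.9, 23.2, 14.7 and 23.3 FPKM in ligated Wt livers. For Col3a1, sham KO livers gave 2.03, 2.26, 4.06, 4.83 and 3.45 FPKM and sham Wt livers 4.64, 2.37, 2.70, 3.11 and 3.24 FPKM. BDL_KO_2359 lay inside the sham KO range and BDL_KO_2248 below it, and the other 3 ligated KO libraries lay above every ligated Wt library. In KO livers the Col3a1 difference of 1.58 ± 0.64 did not pass (limma adjusted p = 0.0771), and without the 2 libraries it was 3.05 ± 0.24 and passed (adjusted p = 3.21e-07). Leaving out only BDL_KO_2359 gave 1.94 (adjusted p = 0.031), and leaving out only BDL_KO_2248 gave 2.32 (adjusted p = 0.00137). Both were the lowest ligated KO libraries for Col3a1, so leaving them out favours a larger rise, and these values are a description. In Wt livers Col3a1 rose by 2.32 ± 0.64 (adjusted p = 0.00801).

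Type V chains sit inside type I fibrils and set their diameter. Col5a2 measured 1.27, 2.33, 1.42, 3.31 and 2.12 FPKM in ligated KO livers, against 1.26, 1.28, 1.86, 3.89 and 2.02 FPKM in ligated Wt livers. For Col5a2, sham KO livers gave 0.188, 0.237, 0.471, 0.477 and 0.539 FPKM and sham Wt livers 0.300, 0.265, 0.348, 0.317 and 0.391 FPKM. Col5a2 was higher in each ligated library than in each sham library of its genotype, BDL_KO_2359 and BDL_KO_2248 included. Since Col5a2 passed the filter only through ligated libraries, this separation is a description. Col5a2 rose by 1.52 ± 0.23 in KO livers (limma adjusted p = 0.000147) and by 1.55 ± 0.23 in Wt livers (adjusted p = 4.61e-05). Its partner Col5a1 ranged from 0.303 to 4.35 FPKM in ligated KO livers and 1.58 to 2.93 FPKM in ligated Wt livers, against 0.920 to 1.33 FPKM in sham KO livers and 0.962 to 1.50 FPKM in sham Wt livers. The Col5a1 difference of 0.51 ± 0.36 in KO livers did not pass (adjusted p = 0.312), and without the 2 libraries it was 1.30 ± 0.18 and passed (adjusted p = 4.48e-05). Those libraries had the lowest ligated KO values of Col5a1, so the value without them is a description. In Wt livers the Col5a1 difference was 0.74 ± 0.36 and did not pass (adjusted p = 0.117), although every ligated library lay above every sham library. Col5a1 passed in Wt livers with array weights (0.66, adjusted p = 0.0121) and when only the compared groups were fitted (0.74, adjusted p = 0.00303).

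A pair of fibrillar genes did not follow the others. Col27a1 measured 0.850, 1.18, 1.08, 1.61 and 1.35 FPKM in ligated KO livers, against 1.52, 1.19, 1.64, 1.18 and 0.783 FPKM in ligated Wt livers. For Col27a1, sham KO livers gave 4.89, 4.22, 2.59, 2.09 and 1.64 FPKM and sham Wt livers 3.96, 4.86, 1.46, 2.16 and 1.33 FPKM. Col27a1, a fibrillar collagen of cartilage with a shorter unbroken run than most of its class, was the single measured collagen called lower after ligation by the test used here. All ligated KO libraries were below all sham KO libraries, while the Wt groups overlapped. It fell by 0.99 ± 0.29 on the log2 scale in KO livers (limma adjusted p = 0.0176) and by 0.78 ± 0.29 in Wt livers (adjusted p = 0.043). The KO call was lost without BDL_KO_2359 and BDL_KO_2248 (-0.85 ± 0.34, adjusted p = 0.0624) or without Sham_KO_2347, and the Wt call in 7 of 10 cases of leaving out 1 library. With array weights, which count variable libraries less, the KO call was also lost (-0.82, adjusted p = 0.0637). Col5a3 measured 5.83, 6.81, 0.971, 3.43 and 2.91 FPKM in ligated KO livers, against 6.26, 4.08, 5.75, 2.99 and 6.60 FPKM in ligated Wt livers. For Col5a3, sham KO livers gave 9.70, 6.67, 8.37, 2.56 and 2.42 FPKM and sham Wt livers 10.6, 14.0, 3.26, 2.96 and 2.67 FPKM. Col5a3, a type V chain known as rare in most tissues, had the highest mean of the 3 here (5.44 FPKM, against 1.74 FPKM for Col5a1 and 1.22 FPKM for Col5a2). It was called in neither genotype, at -0.53 ± 0.49 in KO livers (adjusted p = 0.461) and -0.09 ± 0.49 in Wt livers (adjusted p = 0.906).

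In sham livers both genes lay apart by library type. Col5a3 was 6.67 to 14.0 FPKM in the 5 sham libraries with Y-linked transcripts and 2.42 to 3.26 FPKM in the 5 with Xist. Col27a1 was 2.59 to 4.89 FPKM in the Y-linked and 1.33 to 2.16 FPKM in the Xist sham libraries. These were 2 of 18 collagen genes with every Y-linked sham library above every Xist one and 0 of 18 below, where 3.07% and 2.36% of all genes were. In ligated livers 0 of 18 separated above and 0 of 18 below, where 0.448% and 0.327% of all genes did. There Col5a3 was 4.08 to 6.81 FPKM in Y-linked and 0.971 to 6.60 FPKM in Xist libraries, and Col27a1 0.851 to 1.64 FPKM against 0.783 to 1.61 FPKM. Within library types, Col27a1 in KO livers fell by 1.51 among Y-linked libraries (limma adjusted p = 0.00738), and its Xist value was -0.36 (adjusted p = 0.377). In Wt livers it fell by 1.34 among Y-linked libraries (adjusted p = 0.00557), and the Xist value was -0.53 (adjusted p = 0.186). Col5a3 in KO livers gave -0.35 among Y-linked libraries (adjusted p = 0.363) and -0.15 among Xist libraries (adjusted p = 0.872). In Wt livers it fell by 1.13 among Y-linked libraries (adjusted p = 0.0069) and gave 0.53 among Xist libraries (adjusted p = 0.50). With library type as a covariate Col27a1 was called lower in both genotypes, at -0.88 in KO livers (adjusted p = 0.0122) and -0.88 in Wt livers (adjusted p = 0.00736). Both genes are given here for their high Y-linked sham values, which are also the reference of the Y-linked fits. That favours a fall there, so the values within library types are a description. These fits hold 2 or 3 libraries a group, with BDL_KO_2359 among the Y-linked and BDL_KO_2248 among the Xist libraries. Y-linked fits called 7.63% of all genes in KO and 22.2% in Wt livers, and Xist fits 3.91% and 6.48%. The difference between library types in the response to ligation was not tested.

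**Figure D4:**
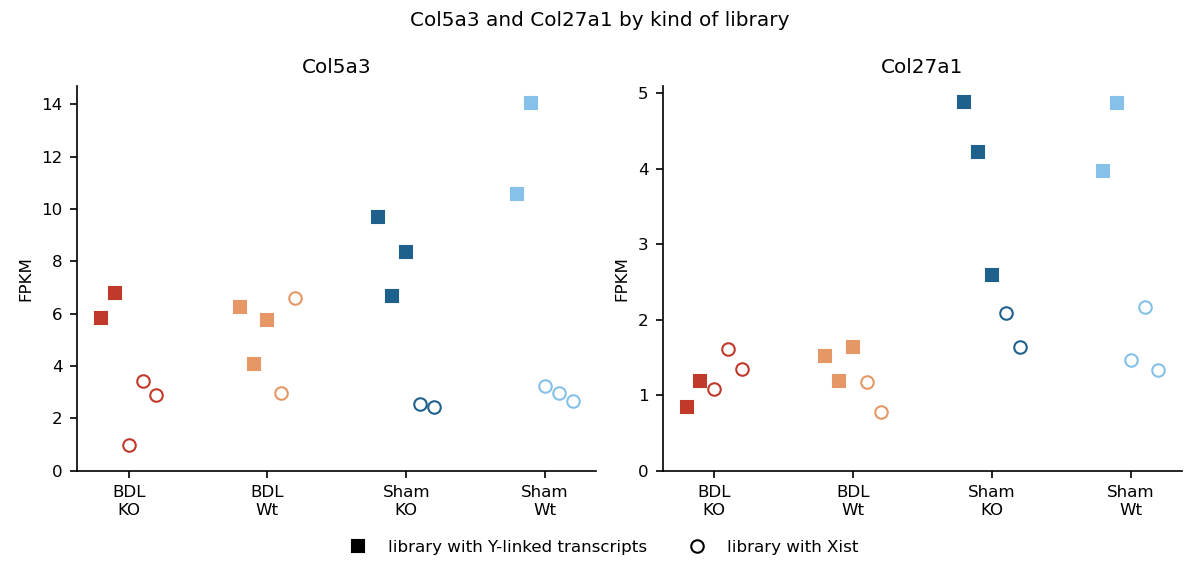
FPKM of Col5a3 and Col27a1, 1 point a library, with BDL groups left of Sham groups, filled squares for libraries with Y-linked transcripts and open circles for those with Xist. In sham livers the Y-linked libraries lie above the Xist libraries for both genes (Col5a3 6.67 to 14.0 against 2.42 to 3.26 FPKM), and in ligated livers they overlap.

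Promoter sequence is shown for a gene that rose, Col3a1, and for Col5a3, one of the pair that lay apart by library type in sham livers. Each line gives the 250 bases before the RefSeq start site on GRCm38.p6, 5′ to 3′ on the gene's strand, with a TATAAA match of Col3a1 and a CCAAT match of Col5a3 in capitals.
Col3a1, chr1:45311288-45311537, plus strand: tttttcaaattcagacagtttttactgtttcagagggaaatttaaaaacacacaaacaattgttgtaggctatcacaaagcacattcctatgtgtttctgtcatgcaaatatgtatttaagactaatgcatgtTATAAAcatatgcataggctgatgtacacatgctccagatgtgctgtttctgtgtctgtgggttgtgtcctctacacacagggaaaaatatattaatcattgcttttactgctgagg
Col5a3, chr9:20815068-20815317, minus strand: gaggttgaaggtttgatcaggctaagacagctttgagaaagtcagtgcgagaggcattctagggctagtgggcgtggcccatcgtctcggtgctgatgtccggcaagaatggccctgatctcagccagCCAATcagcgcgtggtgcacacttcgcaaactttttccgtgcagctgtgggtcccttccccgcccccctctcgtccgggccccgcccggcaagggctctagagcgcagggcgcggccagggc
RefSeq windows from 250 bases before to 50 after the start site were found for 35 of the 44 genes and 15 of the 18 measured ones. Only the 250 bases before the start site were searched. On the gene strand, TATAAA occurred there in 2 of 17 windows of measured collagen genes and in 7.6% of all 32851 windows. On both strands, CCAAT occurred in 7 of 17 (33.8% of all), GGGCGG in 10 of 17 (32.7% of all) and TGANTCA in 1 of 17 (6.7% of all). These matches describe letters and not bound sites.

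Both main basement membrane chains rose. Col4a1 measured 6.05, 17.2, 5.30, 22.7 and 11.7 FPKM in ligated KO livers, against 19.7, 13.5, 21.1, 20.0 and 21.0 FPKM in ligated Wt livers. For Col4a1, sham KO livers gave 4.12, 5.49, 5.18, 4.56 and 4.85 FPKM and sham Wt livers 4.68, 4.13, 3.58, 4.06 and 4.72 FPKM. BDL_KO_2248 lay inside the sham KO range and BDL_KO_2359 just above it, while every ligated Wt library lay far above all sham libraries. Col4a1 rose by 1.10 ± 0.28 in KO livers (limma adjusted p = 0.00763) and by 2.04 ± 0.28 in Wt livers (adjusted p = 2.25e-05). Col4a2 measured 3.78, 11.1, 3.28, 13.6 and 7.64 FPKM in ligated KO livers, against 6.29, 6.23, 8.40, 8.43 and 8.07 FPKM in ligated Wt livers. For Col4a2, sham KO livers gave 3.12, 3.08, 3.32, 3.59 and 3.54 FPKM and sham Wt livers 3.48, 2.36, 2.02, 3.22 and 3.17 FPKM. Col4a2 is the chain that joins Col4a1 in each molecule, and its gene lies head to head with Col4a1, the annotated ends overlapping slightly. It rose by 0.94 ± 0.27 in KO livers (adjusted p = 0.0169) and by 1.26 ± 0.27 in Wt livers (adjusted p = 0.00138). The KO call was lost without BDL_KO_2365 (adjusted p = 0.0515) or BDL_KO_2370 (adjusted p = 0.0523).

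Col4a5 measured 1.05, 1.52, 1.02, 1.48 and 1.08 FPKM in ligated KO livers, against 1.32, 1.20, 1.58, 1.56 and 1.23 FPKM in ligated Wt livers. For Col4a5, sham KO livers gave 0.289, 0.370, 0.576, 0.624 and 0.287 FPKM and sham Wt livers 0.350, 0.369, 0.532, 0.427 and 0.721 FPKM. Col4a5, a chain of the type IV network best known from kidney and the gene of Alport syndrome, stayed low but separated fully, with every ligated library above every sham library of its genotype. Since Col4a5 passed the filter only through ligated libraries, this separation is a description. Col4a5 rose by 0.90 ± 0.14 in KO livers (limma adjusted p = 0.000154) and by 0.95 ± 0.14 in Wt livers (adjusted p = 3.83e-05). The 3 remaining type IV genes, Col4a3, Col4a4 and Col4a6, were too low to measure.

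Type VI chains, which form beaded filaments around cells, held 2 of the 3 KO calls and 3 of the 4 Wt calls among the other collagens. Col6a1 measured 2.80, 4.65, 3.24, 6.63 and 5.59 FPKM in ligated KO livers, against 3.72, 2.79, 3.64, 6.93 and 3.49 FPKM in ligated Wt livers. For Col6a1, sham KO livers gave 1.50, 1.80, 2.21, 2.19 and 2.53 FPKM and sham Wt livers 2.04, 1.79, 1.82, 2.49 and 2.38 FPKM. Every ligated library exceeded every sham library of its genotype. Col6a1 rose by 0.95 ± 0.21 in KO livers (limma adjusted p = 0.0033) and by 0.77 ± 0.21 in Wt livers (adjusted p = 0.00775). Col6a2 measured 0.777, 1.48, 1.01, 2.49 and 1.87 FPKM in ligated KO livers, against 1.18, 1.19, 1.50, 2.44 and 1.17 FPKM in ligated Wt livers. For Col6a2, sham KO livers gave 0.363, 0.546, 0.860, 0.733 and 0.807 FPKM and sham Wt livers 0.816, 0.764, 0.451, 0.724 and 0.504 FPKM. Among ligated KO libraries BDL_KO_2359 was lowest and lay inside the sham KO range. Col6a2 rose by 0.75 ± 0.21 in KO livers (adjusted p = 0.0147) and by 0.77 ± 0.21 in Wt livers (adjusted p = 0.00827).

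Col6a3 measured 0.552, 3.53, 0.239, 4.60 and 3.18 FPKM in ligated KO livers, against 2.60, 2.20, 2.68, 1.75 and 2.58 FPKM in ligated Wt livers. For Col6a3, sham KO livers gave 0.560, 0.885, 0.852, 0.871 and 0.952 FPKM and sham Wt livers 0.704, 0.571, 0.473, 0.774 and 0.614 FPKM. The long Col6a3 chain behaved differently from its partners in the 2 libraries that stood apart, both of which lay below every sham KO library. Its KO difference of 0.78 ± 0.38 did not pass (limma adjusted p = 0.147), and without those libraries it was 1.68 ± 0.14 (adjusted p = 5.05e-07). Leaving out libraries that low favours a rise, so the latter value is a description. In Wt livers Col6a3 rose by 1.34 ± 0.38 (adjusted p = 0.0104).

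Col14a1 measured 1.22, 9.60, 1.03, 10.4 and 9.80 FPKM in ligated KO livers, against 4.61, 3.85, 4.31, 2.81 and 5.20 FPKM in ligated Wt livers. For Col14a1, sham KO livers gave 5.21, 7.46, 7.37, 9.27 and 7.63 FPKM and sham Wt livers 6.39, 5.24, 4.78, 6.62 and 5.21 FPKM. Col14a1, a fibril-associated collagen, overlapped between ligated and sham livers of each genotype, at -0.65 ± 0.45 in KO livers (limma adjusted p = 0.31) and -0.42 ± 0.45 in Wt livers (adjusted p = 0.511). Fitting only the compared groups called it lower in Wt livers (adjusted p = 0.0379). Its ligated KO values fell into 3 high and 2 low libraries. Without the 2 low ones, BDL_KO_2359 and BDL_KO_2248, the KO difference turned to 0.42 ± 0.17 and did not pass (adjusted p = 0.0568). Leaving out the lowest libraries favours a rise, so this value is a description. Col15a1 measured 0.967, 2.02, 0.671, 2.32 and 1.80 FPKM in ligated KO livers, against 1.31, 0.994, 1.43, 1.47 and 1.60 FPKM in ligated Wt livers. For Col15a1, sham KO livers gave 0.885, 0.761, 1.08, 0.540 and 0.569 FPKM and sham Wt livers 1.29, 0.791, 1.56, 1.97 and 1.97 FPKM. Col15a1, the multiplexin related to Col18a1, rose by 0.64 ± 0.22 in KO livers (adjusted p = 0.0432), and its Wt value was -0.09 ± 0.22 (adjusted p = 0.802). Leaving out 1 library ended the KO call in 7 of 10 cases, and a lower filter on expression ended it too.

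Col16a1 measured 0.435, 1.05, 0.185, 1.38 and 0.909 FPKM in ligated KO livers, against 1.27, 0.714, 1.01, 1.14 and 1.06 FPKM in ligated Wt livers. For Col16a1, sham KO livers gave 0.427, 0.368, 0.650, 0.621 and 0.516 FPKM and sham Wt livers 0.600, 0.407, 0.406, 0.610 and 0.540 FPKM. Col16a1, a fibril-associated collagen near the limit of measurement, gave a difference of 0.26 ± 0.21 in KO livers (limma adjusted p = 0.375). It rose by 0.60 ± 0.21 in Wt livers (adjusted p = 0.0287), a call that leaving out 1 library ended in 6 of 10 cases. Col13a1, a membrane-spanning collagen, ranged from 0.372 to 1.91 FPKM in ligated KO livers and 0.204 to 0.536 FPKM in ligated Wt livers, against 0.579 to 1.34 FPKM in sham KO livers and 0.492 to 0.908 FPKM in sham Wt livers. Its ligation differences were -0.26 ± 0.22 in KO livers (adjusted p = 0.43) and -0.50 ± 0.22 in Wt livers (adjusted p = 0.0862). With array weights Col13a1 was called lower in both, at -0.55 in KO (adjusted p = 0.041) and -0.50 in Wt livers (adjusted p = 0.00934), and in Wt livers also when only the compared groups were fitted (adjusted p = 0.0166).

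The response of KO livers depended on which libraries were counted. Of the 11 genes called higher in Wt livers, all 11 lay above every sham library of the same genotype in each of the 5 ligated Wt libraries and in BDL_KO_2365, BDL_KO_2370 and BDL_KO_2371. In BDL_KO_2359 this held for 7 of the 11 (Col1a1, Col1a2, Col5a2, Col4a1, Col4a2, Col4a5 and Col6a1) and in BDL_KO_2248 for 4 (Col5a2, Col4a5, Col6a1 and Col6a2). The 11 genes were picked by their rise in these Wt libraries, which favours the Wt result. The share of all genes above every sham library was not counted for each library, so these counts are a description. BDL_KO_2248 was the lowest ligated KO library for 12 of the 18 measured genes, and BDL_KO_2370 the highest for 14. Without the 2 libraries, 13 of 18 collagen genes were called higher and 1 lower in ligated over sham KO livers, where 37.0% of all genes were called, 18.8% higher. Col3a1, Col5a1, Col6a3 and Col16a1 (0.66 ± 0.14, limma adjusted p = 0.00159) joined the genes called higher, Col13a1 (-0.58 ± 0.20, adjusted p = 0.0274) became the gene called lower, and Col27a1 no longer passed. The other differences were 1.81 ± 0.24 for Col5a2, 1.69 ± 0.17 for Col4a1, 1.52 ± 0.17 for Col4a2, 1.01 ± 0.15 for Col4a5, 1.27 ± 0.20 for Col6a1, 1.07 ± 0.20 for Col6a2 and 1.02 ± 0.19 for Col15a1. Since the libraries left out were low for many of these genes, this count is a description. In the same 2 libraries the summed hepatocyte markers were 42860 and 54490 FPKM, against 29730 to 33280 FPKM in the other 3, and the summed myofibroblast markers 3.21 and 1.78 FPKM against 10.2 to 13.6 FPKM. Markers of portal fibroblasts and mesothelium summed to 11.3 and 9.70 FPKM in these 2 and 10.4 to 11.8 FPKM in the other 3. The sum hides opposite values of genes picked after these were seen: Msln, of mesothelium, was 4.13 and 5.66 FPKM against 1.33 to 2.46 FPKM, while Mfap4 was 1.22 and 0.076 FPKM against 2.45 to 3.11 FPKM, and Thy1 0.334 and 0.098 FPKM against 0.627 to 0.737 FPKM. The part of these differences in the collagen values was not tested.

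Between genotypes no collagen gene passed the test, before or after ligation. In ligated livers 0 of 18 were called in KO over Wt, where 8.83% of all genes were (3.46% higher, 5.37% lower), with 2 below an unadjusted p of 0.05 and 0 called by voom on recovered fragments. On TPM the shares of all genes were 0.797% higher and 11% lower, with total fragments 1.09% and 8.37%, with median shifts of -0.27 and -0.17, and 0 of 18 collagen genes were called on either. The 2 below an unadjusted p of 0.05 were Col4a1, at -0.77 ± 0.28 (95% interval -1.35 to -0.18, limma adjusted p = 0.0885), and Col13a1, at 0.63 ± 0.22 (95% interval 0.16 to 1.10, adjusted p = 0.0822). The intervals of the leading fibrillar genes were wide: -1.96 to 0.42 around -0.77 ± 0.56 for Col1a1, -2.08 to 0.62 around -0.73 ± 0.64 for Col3a1 and -0.98 to 0.48 around -0.25 ± 0.35 for Col1a2. Narrower intervals were -0.44 to 0.53 for Col5a2, -0.41 to 0.16 for Col4a5 and -0.46 to 0.44 for Col6a2. In 0 of 18 genes did every KO library lie above or below every Wt library, where 2.17% and 3.33% of all genes did. Class medians of this comparison were -0.27 for fibrillar, -0.12 for basement membrane and 0.09 for other collagens, beside 0.014 over all genes.

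Leaving out 1 library of the ligated KO group moved both genes across the threshold. Col4a1 was called lower without BDL_KO_2365 (-0.92, limma adjusted p = 0.0372) or without BDL_KO_2370 (-1.02, adjusted p = 0.00853), and Col13a1 higher without BDL_KO_2365 (0.73, adjusted p = 0.0447) or BDL_KO_2371 (0.78, adjusted p = 0.0426). BDL_KO_2248 had the highest Col13a1 of the ligated KO libraries (1.91 FPKM), and the Col13a1 difference was 0.408 with that library alone left out. Without BDL_KO_2359 and BDL_KO_2248 the Col4a1 difference was -0.18 ± 0.17 (adjusted p = 0.612) and the Col13a1 difference 0.305 ± 0.195 (adjusted p = 0.398). The 3 remaining KO libraries were then higher than Wt for Col14a1, by 1.19 ± 0.17 (adjusted p = 0.000448), and for Col6a3, by 0.58 ± 0.14 (adjusted p = 0.0221), whose sign with all 5 libraries was negative (-0.33 ± 0.38). Both libraries left out were the lowest of their group for Col14a1 and Col6a3, so these values are a description. At that setting 6.6% of all genes were called, 3.24% higher.

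In sham livers 0 of 18 were called in KO over Wt, where 2.97% of all genes were (1.31% higher, 1.66% lower), with 1 below an unadjusted p of 0.05 and 0 by voom. That gene was Col15a1, at -0.65 ± 0.22 (95% interval -1.12 to -0.17, limma adjusted p = 0.129). On TPM 0.142% of all genes were called higher and 1.35% lower, with total fragments 0.32% and 1.01%, and 0 of 18 collagen genes on either. In 0 of 18 genes was every KO library above or below every Wt library, where this held for 3.49% and 4.58% of all genes. The difference between genotypes in the response to ligation, tested as an interaction, gave 0 of 18 calls, where 0.377% of all genes were called (0.156% higher, 0.22% lower), with 2 below an unadjusted p of 0.05 and 0 by voom. These were Col4a1, at -0.94 ± 0.39 (95% interval -1.77 to -0.11, adjusted p = 0.315), and Col15a1, at 0.73 ± 0.32 (95% interval 0.05 to 1.40, adjusted p = 0.344). For Col1a1 the interaction was -0.92 ± 0.80 with an interval of -2.60 to 0.77. Without the 2 libraries Col15a1 was the single call, at 1.11 ± 0.25 (adjusted p = 0.0434), where 1.27% of all genes were called, 0.804% higher, and the libraries left out were also the lowest ligated KO libraries for Col15a1. The Col4a1 interaction at that setting was -0.35 ± 0.23 (adjusted p = 0.517).

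Ratios between partner chains show how the members moved among themselves, and they need no scaling between libraries. Col4a1 over Col4a2 was 1.53 to 1.68 in ligated KO livers and 2.17 to 3.13 in ligated Wt livers, against 1.27 to 1.78 in sham KO livers and 1.26 to 1.77 in sham Wt livers. The ligated Wt libraries thus lay above all other libraries, and the 5 ligated KO libraries lay within the range of the sham libraries and close together, BDL_KO_2359 and BDL_KO_2248 included. Col1a1 over Col1a2 was 0.549 to 2.34 in ligated KO livers and 1.95 to 2.23 in ligated Wt livers, against 0.718 to 1.32 in sham KO livers and 0.777 to 1.22 in sham Wt livers, with BDL_KO_2248 at 0.549 and BDL_KO_2359 at 1.05. Here the 3 other ligated KO libraries were above all sham libraries.

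Col3a1 over Col1a1 was 0.882 to 1.71 in ligated KO livers and 0.609 to 1.66 in ligated Wt livers, against 1.52 to 2.97 in sham KO livers and 2.40 to 2.89 in sham Wt livers. Every ligated Wt library lay below every sham Wt library, so Col1a1 had gained on Col3a1, while the KO groups overlapped. The ratio of Col3a1 to Col1a2, the other type I chain, was not taken. In Wt livers mean Col1a2 was 1.28 FPKM in sham and 7.10 FPKM in ligated livers, and mean Col3a1 3.21 and 18.15 FPKM. On the log2(FPKM + 0.5) scale, which understates the change of low genes, Col1a2 rose by 2.04 ± 0.35 and Col3a1 by 2.32 ± 0.64. Col5a2 over Col5a1 was 0.605 to 4.70 in ligated KO livers and 0.691 to 1.33 in ligated Wt livers, against 0.158 to 0.480 in sham KO livers and 0.212 to 0.362 in sham Wt livers, with no overlap in either genotype. Col6a3 over Col6a1 was 0.0740 to 0.758 in ligated KO livers and 0.252 to 0.787 in ligated Wt livers, against 0.374 to 0.492 in sham KO livers and 0.258 to 0.345 in sham Wt livers. The ratios are a description with no test.

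**Figure D5:**
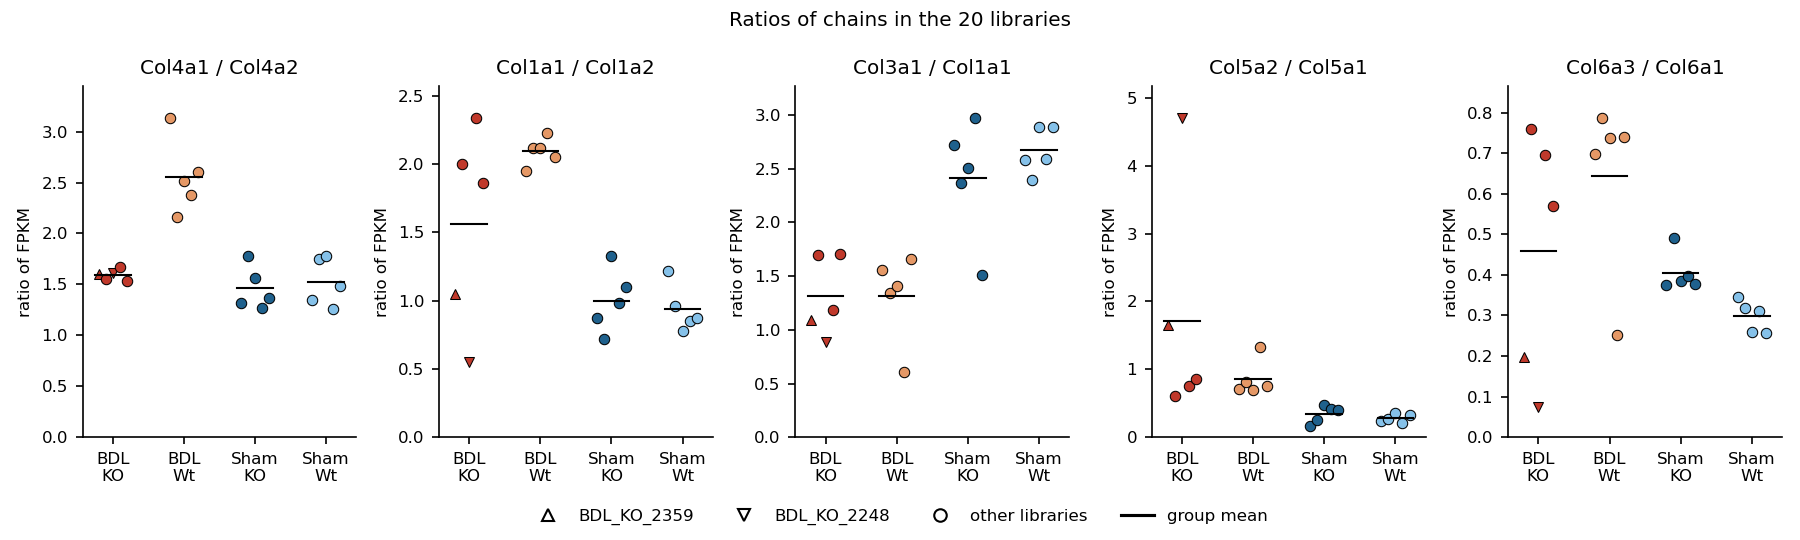
FPKM ratios of partner collagen chains in each library (linear axis from 0, horizontal lines at the group means), for BDL_KO, BDL_Wt, Sham_KO and Sham_Wt from left to right. Col4a1 over Col4a2 lies at 2.17 to 3.13 in ligated Wt livers and at 1.53 to 1.68 in ligated KO livers.

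Some of the genes that fold, process, crosslink and bind collagen were called higher after ligation. Of all genes, 12.3% were called higher and 12.9% lower in KO livers, and 18.1% higher and 17.5% lower in Wt livers. In KO livers the folding and fibril-binding calls lay near that share. Of 17 tested folding and modification genes, 3 were higher in ligated over sham KO livers and 5 in ligated over sham Wt livers, where 12.3% and 18.1% of all genes were called higher. They included Colgalt1, which adds galactose to collagen lysines (0.67 ± 0.11 in KO, 1.08 ± 0.11 in Wt), Fkbp10, a chaperone of procollagen (0.94 ± 0.25 in KO, 1.02 ± 0.25 in Wt), and Plod2, the lysyl hydroxylase of crosslink sites (0.52 ± 0.19 in KO, 0.67 ± 0.19 in Wt). Of 5 propeptide processing genes, 1 was higher in KO and 2 in Wt livers. The KO call was Adamts2, which removes the amino-terminal propeptide (0.98 ± 0.26 in KO, 0.70 ± 0.26 in Wt), and the other Wt call was Pcolce, an enhancer of the carboxy-terminal cut (0.85 ± 0.30). Of 5 crosslinking genes, 3 were higher and 1 lower in KO livers and 3 higher in Wt livers. Lox, the founding lysyl oxidase, rose by 1.03 ± 0.20 in KO and 1.48 ± 0.20 in Wt livers. Its relatives Loxl1 (0.93 ± 0.21 in KO, 1.26 ± 0.21 in Wt) and Loxl2 (0.95 ± 0.29 in KO, 1.21 ± 0.29 in Wt) rose as well, and Loxl4 fell by 2.08 ± 0.41 in KO livers (limma adjusted p = 0.00152). Of 10 fibril-binding genes, 1 was higher in KO livers, Fn1, which encodes fibronectin (0.84 ± 0.26), and 3 in Wt livers, which were Eln, the elastin gene (1.53 ± 0.32), Sparc, a collagen chaperone outside the cell (0.98 ± 0.35), and Fbn1, the fibrillin of microfibrils (0.82 ± 0.26).

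Basement membrane partners, receptors and upstream signals also held genes that changed. The shares of all genes beside these lists were again 12.3% higher and 12.9% lower in KO livers, and 18.1% higher and 17.5% lower in Wt livers. Of 12 basement membrane partner genes, 3 were higher in KO livers and 4 higher and 1 lower in Wt livers. Nid1, which links laminin to type IV collagen, rose by 1.87 ± 0.36 in KO (limma adjusted p = 0.00126) and 3.20 ± 0.36 in Wt livers (adjusted p = 3.88e-06). Among laminin chains Lama5 rose by 0.72 ± 0.16 in KO and 1.09 ± 0.16 in Wt livers, Lamc1 by 0.80 ± 0.22 in KO and 0.64 ± 0.22 in Wt livers, and Lama1 was the Wt gene called lower (-0.59 ± 0.22). Agrn, a basement membrane proteoglycan, rose by 1.04 ± 0.15 in Wt livers. Of 7 collagen receptor genes, 2 were higher in KO and 5 in Wt livers. Ddr1, a receptor kinase for collagen, rose by 1.78 ± 0.27 in KO (adjusted p = 0.00014) and 3.05 ± 0.27 in Wt livers (adjusted p = 3.13e-07), and Itga2, an integrin chain that binds it, by 1.02 ± 0.26 in KO and 1.31 ± 0.26 in Wt livers. Of 13 genes of TGF-beta and related signals, 6 were higher in KO and 8 in Wt livers. Pdgfa and Pdgfb, growth factors for mesenchymal cells, rose by 1.06 ± 0.37 and 0.85 ± 0.27 in KO livers and by 2.30 ± 0.37 and 1.55 ± 0.27 in Wt livers. Tgfbr2, a receptor of TGF-beta, rose by 1.13 ± 0.15 in KO livers, and Tgfb2, a TGF-beta ligand, by 1.54 ± 0.21 in Wt livers. Median log2 differences of these lists in KO livers were 0.15 for folding, 0.44 for processing, 0.93 for crosslinking, 0.37 for fibril binding, -0.01 for basement membrane partners, 0.61 for receptors and 0.40 for signals. In Wt livers they were 0.30, 0.50, 1.21, 0.24, 0.08, 0.74 and 0.66 in the same order. Without BDL_KO_2359 and BDL_KO_2248 more genes of each list were called higher in ligated over sham KO livers. The counts were then 6 of 17 folding, 3 of 5 processing, 4 of 5 crosslinking, 6 of 10 fibril-binding, 7 of 12 basement membrane partner, 5 of 7 receptor and 10 of 13 signal genes, where 18.8% of all genes were called higher. The medians at that setting were 0.17, 0.92, 1.27, 0.75, 0.43, 0.88 and 0.69.

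In ligated KO over ligated Wt livers, where 5.37% of all genes were called lower and 3.46% higher, the calls of these lists were all lower. They were 1 of 17 folding genes (Colgalt1, -0.44 ± 0.11, limma adjusted p = 0.0163), 2 of 12 basement membrane partners (Nid1 -1.20 ± 0.36 and Agrn -1.08 ± 0.15), 2 of 7 receptors (Ddr1 -1.35 ± 0.27 and Lair1 -0.86 ± 0.24) and 2 of 13 signal genes (Tgfb2 -1.01 ± 0.21 and Ctgf -0.92 ± 0.28). Lair1 encodes an inhibitory collagen receptor of leukocytes. Without BDL_KO_2359 and BDL_KO_2248 the directions were mixed, with 3 basement membrane partners higher and 1 lower, 1 receptor higher and 2 lower, 1 signal gene higher and 1 lower, and 3 fibril-binding, 1 crosslinking and 1 folding gene higher. At that setting 3.24% of all genes were called higher and 3.36% lower. In sham KO over sham Wt livers the calls of these lists were P4ha2, a prolyl hydroxylase chain (0.56 ± 0.15), Loxl4 (1.61 ± 0.41) and Smad7, an inhibitor of TGF-beta signalling (-1.03 ± 0.26). There 1.31% of all genes were called higher and 1.66% lower.

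With all libraries, markers of stellate cells and myofibroblasts, known collagen producers, did not pass the test. Of all genes, 25.1% were called after ligation in KO and 35.6% in Wt livers. Summed stellate cell markers were 5.36 to 28.2 FPKM in ligated KO livers and 13.1 to 19.5 FPKM in ligated Wt livers, against 15.9 to 19.8 FPKM in sham KO livers and 11.7 to 17.4 FPKM in sham Wt livers, and limma called 0 of 6 tested members in either ligation comparison (0 at an unadjusted p under 0.05 and 0 by voom). Lrat, the retinol-storing enzyme of stellate cells, gave a log2 difference of -0.29 ± 0.35 in KO and 0.07 ± 0.35 in Wt livers. Of 3 tested myofibroblast markers limma called 0 (0 at an unadjusted p under 0.05 and 0 by voom), with Acta2, smooth muscle actin, at a log2 difference of -0.30 ± 0.48 in KO and 0.12 ± 0.48 in Wt livers, and with Cnn1 at 0 in BDL_KO_2359, BDL_KO_2248 and BDL_Wt_2235. Without BDL_KO_2359 and BDL_KO_2248, 3 of 6 stellate cell markers were called higher in ligated over sham KO livers and 4 of 6 in ligated KO over ligated Wt livers. The same fits called 0 of 3 and 2 of 3 myofibroblast markers higher. All genes called higher were 18.8% and 3.24% in these fits. The libraries left out stood apart partly by their low stellate cell markers, and their myofibroblast markers were low too. These counts are therefore a description. Of 7 portal fibroblast and mesothelium markers, 2 were higher in ligated KO and 3 in ligated Wt livers, where 12.3% and 18.1% of all genes were. Cholangiocyte markers summed to 68.7 to 568 FPKM in ligated KO livers and 230 to 619 FPKM in ligated Wt livers, against 32.5 to 37.2 FPKM in sham KO livers and 26.1 to 31.8 FPKM in sham Wt livers. Of 7 such markers, 5 were higher in KO and 7 in Wt livers, beside the same shares of 12.3% and 18.1%. Of 6 sinusoidal endothelial markers, 3 were lower in KO and 5 in Wt livers, where 12.9% and 17.5% of all genes were called lower. Markers of skin, cartilage and other tissue summed to at most 1.00 FPKM in any library. The part of these markers in the collagen differences was not tested.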

How the data were processed

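Polyadenylated liver RNA was sequenced in 20 mouse libraries, 5 in each of 4 groups, after TRIzol extraction and with a VAHTS Universal V6 library kit per the labels. The submitters' processing notes name CASAVA 1.8, fastp, HISAT2 2.0.5, featureCounts 1.5.0-p3, DESeq2 1.20.0 and the GRCm38/mm10 build, and the annotation release and strand setting are not given in the sources used here. The authors deposited FPKM values per gene in 1 table. FPKM values are relative, and the library sizes they imply differ from the totals of fragments. Low values were whole multiples of 1 fragment (98.13% to 98.51% of values within 0.02), which gave depths of 14.94 to 20.9 M fragments. PCR copies cannot be told from molecules, so precision from depth covers counting error only.

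The 14059 genes that reached 0.5 FPKM in 5 or more libraries were tested in limma 3.58.1 (R 4.3.3) on log2(FPKM + 0.5), with 1 mean per group, a trended and robust variance over all 20 libraries, and Benjamini-Hochberg adjustment over all genes at 0.05, for 5 comparisons. Intervals are 95% intervals on 16 residual degrees of freedom. The script was tested on simulated data. Alternatives were other pseudocounts, filters and scalings, voom on recovered fragments, array weights, library type, leaving out each library, and leaving out BDL_KO_2359 and BDL_KO_2248 together. Fits within a library type were added after seeing the data. BDL_KO_2359 and BDL_KO_2248 were picked because their values in these data stood apart. Sequences come from RefSeq and GENCODE M21 tables. Python 3.11.15, pandas 2.3.3, numpy 2.4.6, scipy 1.17.1 and matplotlib 3.10.9 were used.

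The members, classes and gene lists were chosen with earlier results of these data known. Values in every library are given for measured collagen genes called in any comparison or among the 4 highest of their class. From each pathway list up to 3 called genes with the largest difference per comparison are named. One gene of the basement membrane partner list is not reported here, and it was left out of that list's counts and medians. Col4a1, Col13a1 and Col5a1 are described in addition where their values bear on a comparison.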

Additional observations from a re-analysis of the deposited data

Results flagged for a closer look

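Over the 18 measured genes and 5 chain ratios, 92 sets of 5 libraries were examined for a highest or lowest library whose gap to the nearest other exceeds 0.71 of the whole range. Chance flags about 1 in 20 such sets, and 9 were flagged. BDL_Wt_2237 accounts for 5 of them. It had the highest ligated Wt values of Col6a1 (6.93 FPKM, next 3.72), Col6a2 (2.44 FPKM, next 1.50) and Col5a2 (3.89 FPKM, next 2.02), the highest Col5a2 over Col5a1 ratio of its group (1.33, next 0.808) and the lowest Col6a3 over Col6a1 ratio (0.252, next 0.698). Its Col3a1 over Col1a1 ratio of 0.609 was also the lowest of all libraries. BDL_KO_2248 had a Col5a2 over Col5a1 ratio of 4.70, against 1.65 in the next ligated KO library. Col4a1 in BDL_Wt_2235 was 13.5 FPKM, where the other ligated Wt libraries had 19.7 to 21.1 FPKM. Among sham KO libraries, Sham_KO_2347 had the lowest Col6a3 (0.560 FPKM, others 0.852 to 0.952 FPKM) and Sham_KO_2349 the highest Col6a3 over Col6a1 ratio (0.491, next 0.398). What sets these libraries apart was not tested.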

How the results depend on the processing

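No paired analysis was possible because the groups share no replicate numbers. Among ligated over sham KO livers, 10 collagen genes were called. The count was 5 when only the compared groups were fitted (basement membrane 1, other 1), 5 in Y-linked libraries (basement membrane 1, other 0) and 1 in Xist libraries (fibrillar 1, basement membrane 0, other 0), fits with fewer libraries. These settings called 12%, 7.63% and 3.91% of all genes, against 25.1% in the main fit. Array weights gave 6 other collagens against 3, as did leaving out BDL_KO_2359 and BDL_KO_2248, where 31.3% and 37.0% of all genes were called. In ligated over sham Wt livers, 12 were called, 14 with array weights and 14 when only the compared groups were fitted, and 2 in Xist libraries (fibrillar 1, basement membrane 1, other 0), while Y-linked libraries gave 0 other collagens. All genes called were 35.6% in the main fit, 49.4% with array weights and 44.2% with only the compared groups. They were 6.48% in Xist and 22.2% in Y-linked libraries. Array weights called 1 gene in sham KO over sham Wt livers, the other collagen Col15a1 (-0.72, limma adjusted p = 0.0166), where 8.78% of all genes were called. Without the 2 libraries, 2 other collagens were called in ligated KO over ligated Wt livers and 1 in the interaction, where 6.6% and 1.27% of all genes were called. Col6a3 in ligated KO over ligated Wt livers turned to 0.575 without them, from a difference that was not called, and the cause was not tested. Leaving out 1 library at a time gave 8 to 14 calls in KO livers (fibrillar 3 to 6, basement membrane 2 to 3, other 2 to 5), 10 to 12 in Wt livers (4 to 5, 3 to 3, 3 to 4), 0 to 2 between ligated genotypes (0 to 0, 0 to 1, 0 to 1) and 0 to 0 between sham genotypes and in the interaction. These fits called 18.6% to 29.1% of all genes in KO livers and 30.4% to 33.6% in Wt livers. They called 4.4% to 14.7% between ligated genotypes, 1.1% to 2.43% between sham genotypes and 0.0569% to 1.07% in the interaction. The Col27a1 call in Wt livers was lost with no filter (-0.78, adjusted p = 0.0816), on TPM (-0.60, adjusted p = 0.148), with total scaling (-0.63, adjusted p = 0.0961) and in 7 of 10 leave-outs. The FPKM limit kept the 26 low genes out of the main test, and depth limits those with few fragments.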
